A study of Mus musculus with 12 samples.

Results

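The genes described here encode the signalling pathway of TGF-beta, bone morphogenetic proteins (BMPs) and activins in the testis of young mice. They were chosen by symbol, as 38 ligands, receptors, Smads, inhibitors and target genes, with earlier results of these data known. All 38 were measured, among 22180 genes in all. RNA came from the whole testis of mice at the age of 2 weeks, all of strain background C57BL/6N, and was hybridised to 12 Affymetrix whole-transcript arrays, 1 per testis. There were 3 testes in which the X-linked gene Sox3, a SoxB1 transcription factor of spermatogonia, was knocked out by CRISPR/Cas9 (Sox3-KO, here KO). Another 3 carried Sox2, a close relative, in the Sox3 locus (Sox3-Sox2KI, here KI). The 6 wild-type (WT) testes were littermates, with WT 1, WT 2 and WT 3 from the KI litters and WT 4, WT 5 and WT 6 from the KO litters. The labels do not say how many founder animals stand behind either line, and a whole testis mixes germ cells with all somatic cells.

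In this pathway a secreted dimer binds type I and type II receptor kinases, which phosphorylate receptor-regulated Smads. These join Smad4, enter the nucleus and switch genes on or off. TGF-beta and activin act mainly through Smad2 and Smad3, and BMPs through Smad1, Smad5 and Smad9. Inhibitory Smads, soluble binding proteins and decoy receptors hold the signal back. In the testis, activins and inhibins are made by Sertoli cells, BMPs by Sertoli and germ cells, and anti-Müllerian hormone acts through its own type II receptor.

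In KO testes 4 genes of the pathway rose. The extracellular matrix protein gene Tgfbi, the co-receptor gene Tgfbr3, the ligand gene Tgfb3 and the BMP target gene Id2 rose by 1.24-fold to 1.62-fold, and no member fell. The remaining 34 did not pass the test (limma, Benjamini-Hochberg adjusted p under 0.05 over all genes). None of the 4 calls held against the WT testes of the KO litters alone, or with array KO 1 or array KO 3 left out. In each of those fits 1 gene in all was called higher. The 4 genes are 10.5% of the members, while 2.52% of all genes tested were called higher in KO testes, 2.34% lower and 4.86% in either direction. Because the members were chosen with earlier results known, and all genes include dim ones, these shares and those that follow only describe the list. The median change of the 38 members was 0.21 on the log2 scale against 0.043 for all genes, and 33 of 38 had a KO mean above the WT mean, as did 59.8% of all genes. At an unadjusted p under 0.05 in the same limma fit 19 of 38 members were higher and none was lower, against 14.4% and 9.82% of all genes. In KI testes no member passed, as was true of all genes (0.0% called).

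Promoter windows are shown for 3 known targets of the pathway. They are those of Tgfbi and Id2, which rose, and of Id3, a relative of Id2 just short of the threshold. Each runs from 250 bases before to 50 bases after the annotated start, in RefSeq on GRCm38.p6, and is written 5′ to 3′ on the gene's strand. The windows are chr13:56609336-56609635 on the plus strand for Tgfbi, chr12:25096043-25096342 on the minus strand for Id2, and chr4:136143572-136143871 on the plus strand for Id3. Capitals mark every match, on either strand, to GGCGCC (a GC-rich Smad motif that is its own reverse complement), to GTCTG (a Smad box with its flanking base) or to ACAAT (the core bound by SOX proteins).
Tgfbi: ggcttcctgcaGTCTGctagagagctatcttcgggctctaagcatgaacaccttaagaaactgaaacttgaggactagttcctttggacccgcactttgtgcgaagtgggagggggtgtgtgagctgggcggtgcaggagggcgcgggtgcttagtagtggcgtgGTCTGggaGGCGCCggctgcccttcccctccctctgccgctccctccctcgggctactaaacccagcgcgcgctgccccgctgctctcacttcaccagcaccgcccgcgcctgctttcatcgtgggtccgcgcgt
Id2: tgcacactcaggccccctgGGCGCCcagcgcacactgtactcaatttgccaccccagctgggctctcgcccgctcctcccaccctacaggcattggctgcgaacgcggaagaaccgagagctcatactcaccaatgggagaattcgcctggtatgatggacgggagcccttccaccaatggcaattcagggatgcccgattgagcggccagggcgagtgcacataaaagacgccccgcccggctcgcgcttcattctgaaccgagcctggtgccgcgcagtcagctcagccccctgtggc
Id3: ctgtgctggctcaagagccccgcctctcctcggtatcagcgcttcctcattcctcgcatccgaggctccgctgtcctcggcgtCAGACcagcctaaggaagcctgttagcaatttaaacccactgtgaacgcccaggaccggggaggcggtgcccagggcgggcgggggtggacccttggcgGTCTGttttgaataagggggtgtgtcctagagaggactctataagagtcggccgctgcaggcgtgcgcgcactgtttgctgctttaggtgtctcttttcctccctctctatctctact
The Tgfbi window holds 1 match to GGCGCC and 2 to GTCTG, the Id2 window 1 to GGCGCC, and the Id3 window 2 to GTCTG. None of the 3 holds ACAAT, and other forms of the core bound by SOX proteins were not searched. Over the 32851 windows of the RefSeq table, 11.9% hold GGCGCC, 49.6% hold GTCTG and 31.0% hold ACAAT, so a match to GTCTG is common. A window was at hand for 26 of the 38 members, and for none of Tgfb3, Tgfbr3 and Id1. GGCGCC was also in a window of Acvr1b, Bmpr1a, Bmpr2, Grem1, Smad5, Smad9 and Tgfbr1, none of them called in KO testes. GTCTG too was in windows of members that were not called, such as Acvr2b and Smad5. The palindromic Smad element GTCTAGAC shares its first 4 bases with GTCTG, and 0.213% of all windows hold it. It occurred once among the windows of the members, in Smad6. A match describes the letters and is not evidence of binding.

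Some facts of the arrays bear on all that follows. On the log2 scale, KO testes had Sox3 at 6.61 ± 0.04 (SD, n = 3), KI testes at 6.99 ± 0.26 (SD, n = 3) and WT testes at 7.28 ± 0.06 (SD, n = 6), and KI 1 lay within the WT range at 7.26. Sox2, the gene inserted in KI testes per their label, was at 4.51, 4.31 and 4.16 there and between 3.81 and 4.22 in WT, all below the background defined here, and its KI difference of 0.29 did not pass (limma adjusted p = 0.945), so these arrays do not show the insertion. Of the KO arrays, KO 1 and KO 3 stood apart, with a median correlation with the other arrays of 0.9857 and 0.9834, against 0.9903 or above for the other 10. Leaving out KO 2 raised the genes called higher in KO testes from 558 to 1375, while leaving out KO 1 or KO 3 left 1. No member was called without KO 1 or without KO 3. This limits what a call made only without KO 2 shows. The 95th percentile of olfactory receptor genes, which are silent in most tissues, was 5.33 and is used as a background. Acvr1c, Bmpr1b, Smad9 and Grem1 lay below it on all arrays, Bmp2 and Nog on some arrays, and 32 members on none. Changes of genes near the background are understated. The SD among the 6 WT testes ran from 0.06 to 0.248 over the members, with a median of 0.124, and the number of arrays limits the precision.

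**Figure D1:**
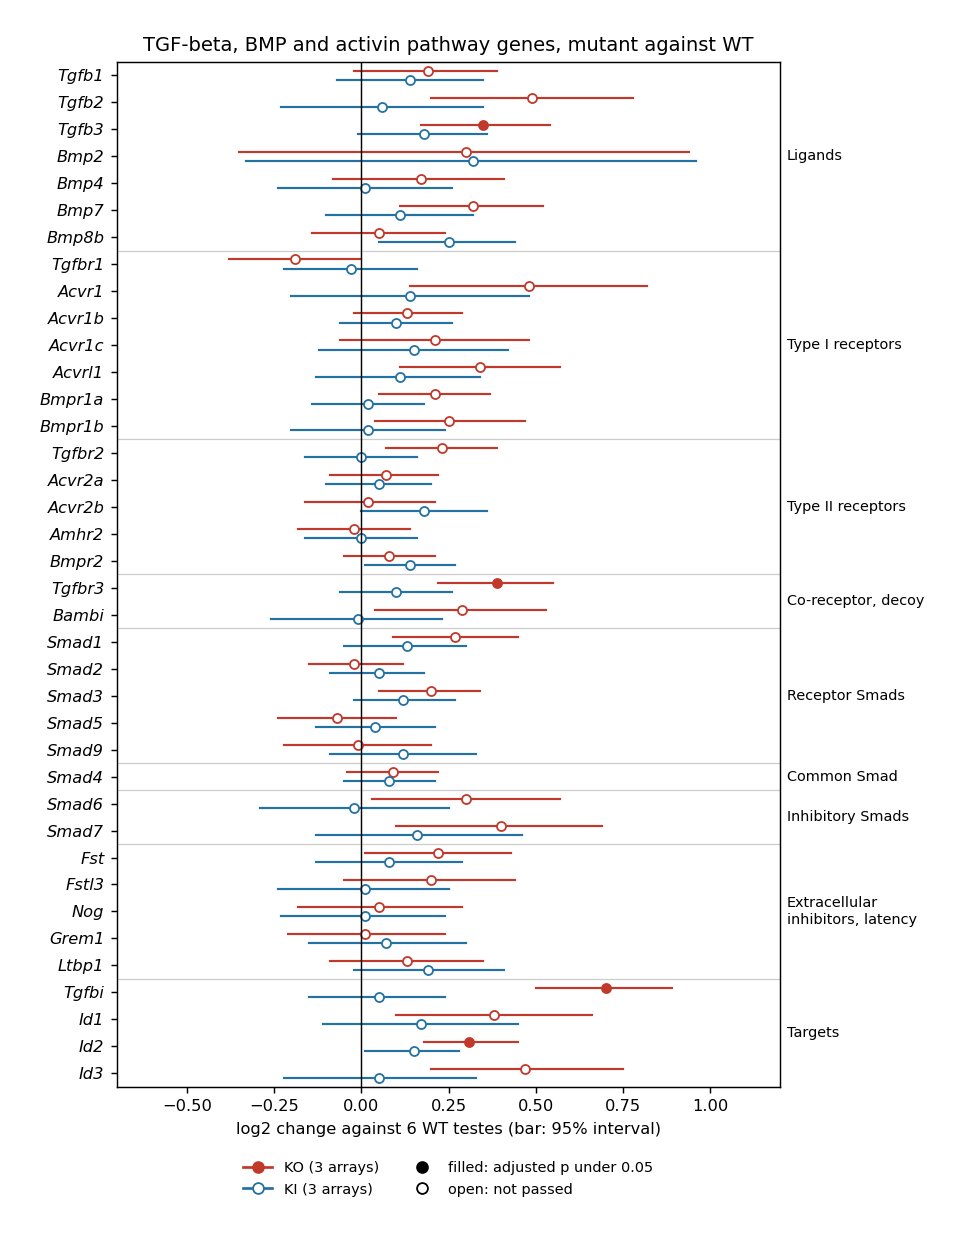
Log2 change of each of the 38 genes against the 6 WT testes, with its 95% interval, for KO (red) and KI (blue), grouped by role; filled points passed at an adjusted p under 0.05. Only Tgfb3, Tgfbr3, Tgfbi and Id2 in KO are filled, and the widest intervals belong to Bmp2.

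Of the 7 ligands, Tgfb3 alone passed in KO testes, where it rose. Tgfb3, 1 of the 3 TGF-beta ligands, was at 8.96, 8.95 and 9.05 in KO 1, KO 2 and KO 3, and between 8.47 and 8.79 in WT (median 8.66). All KO arrays lay above all WT arrays. The change was 0.35 (SE 0.086, 95% interval 0.17 to 0.54, limma adjusted p = 0.0395). Against the WT testes of the KO litters alone it was 0.34 and did not pass (adjusted p = 0.185). In KI testes Tgfb3 was at 8.92, 8.85 and 8.67, so 2 of the 3 KI arrays lay above the WT range.

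Tgfb2, another TGF-beta ligand, was at 7.65, 6.94 and 7.40 in KO 1, KO 2 and KO 3, against 6.70 to 6.98 in WT (median 6.86). KO 1 and KO 3 were high and KO 2 lay within the WT range. Its change of 0.49 did not pass (adjusted p = 0.0536). It passed without KO 2, where it was 0.68 (adjusted p = 0.00691), or without WT 6 (0.52, adjusted p = 0.0437). It was 0.33 without KO 1 (adjusted p = 0.206) and 0.46 without KO 3 (adjusted p = 0.194). Bmp7, a BMP made by many epithelia, changed by 0.32 (adjusted p = 0.0746) with KO arrays at 8.47, 8.18 and 8.59, KO 2 again the lowest, and passed without KO 2 (0.43, adjusted p = 0.017) or without WT 6.

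Tgfb1, the ligand best known from immune cells and fibrosis, was 0.19 higher (95% interval -0.02 to 0.39), and Bmp4, needed for the making of germ cells in the embryo, 0.17 (95% interval -0.08 to 0.41). Bmp8b, a BMP of germ cells, differed by 0.05 in KO and by 0.25 in KI testes (unadjusted p = 0.0161, limma adjusted p = 0.945). Its 3 KI arrays, at 6.04, 5.97 and 6.06, lay above the WT range of 5.64 to 5.96. Bmp2, a further BMP, was near the background and was set by single arrays: KI 1 stood at 6.79 and KO 1 at 6.25, while the other KI arrays were at 5.26 and 5.29 and WT lay between 5.24 and 5.71.

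None of the 7 type I receptors passed in KO testes. Acvrl1, a receptor of endothelial cells for BMPs, had the smallest p in this class, at 7.22, 6.71 and 6.98 in KO 1, KO 2 and KO 3 against 6.43 to 6.82 in WT (median 6.60) and 6.72, 6.71 and 6.78 in KI. KO 2 overlapped WT and the other KO arrays did not. The change was 0.34 (SE 0.108, limma adjusted p = 0.082), and 0.47 without KO 2 (adjusted p = 0.0198). Acvr1, a receptor for BMPs and activins, changed by 0.48 (adjusted p = 0.09), led by KO 3 at 7.19, and passed without KO 2 (0.63, adjusted p = 0.0354).

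The main BMP type I receptor Bmpr1a was 0.21 higher (adjusted p = 0.113) and the activin receptor Acvr1b 0.13 higher (adjusted p = 0.284). Acvr1c (0.21) and Bmpr1b (0.25) were below the background, and Bmpr1b passed without KO 2 (adjusted p = 0.0199). Tgfbr1, the type I receptor for TGF-beta itself, was the one member of this class with a KO mean below WT, by 0.19 on the log2 scale (95% interval -0.38 to 0.00, adjusted p = 0.215). That difference rested on KO 1, at 7.84, since KO 2 (8.18) and KO 3 (8.22) were close to the lowest WT arrays (8.19 to 8.45). Without KO 1 it was -0.07.

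The 5 type II receptors differed little. Tgfbr2, the partner of Tgfbr1, had the smallest p, at 7.29, 7.19 and 7.37 in the KO arrays against 6.91 to 7.24 in WT (median 7.04) and 7.07, 7.06 and 7.01 in KI. KO 2 lay within the WT range, below WT 4. The change of 0.23 did not pass (SE 0.075, adjusted p = 0.0872), and passed without WT 4 (0.27, adjusted p = 0.0363). Amhr2, the receptor for anti-Müllerian hormone on Sertoli and Leydig cells, had a mean of 10.29 ± 0.12 in KO (SD, n = 3), 10.32 ± 0.06 in KI (SD, n = 3) and 10.31 ± 0.09 in WT testes (SD, n = 6). The 95% interval of its KO difference was -0.18 to 0.14. The activin receptors Acvr2a and Acvr2b differed by 0.07 and 0.02 in KO testes, with intervals of -0.09 to 0.22 and -0.16 to 0.21, and the BMP receptor Bmpr2 by 0.08 (95% interval -0.05 to 0.21).

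Of the co-receptor and the decoy, Tgfbr3 rose and Bambi did not pass. Tgfbr3, also called betaglycan, presents TGF-beta2 to its receptors and binds inhibin. It was at 8.70, 8.44 and 8.68 in KO 1, KO 2 and KO 3, between 8.13 and 8.29 in WT (median 8.24), and at 8.41, 8.32 and 8.23 in KI. All KO arrays lay above all WT and all KI arrays. The KO change was 0.39 (SE 0.076, 95% interval 0.22 to 0.55, limma adjusted p = 0.031). With the KO litters as the only controls it was 0.40 and did not pass (adjusted p = 0.155). Bambi, a receptor-like protein without a kinase that dampens signalling, was at 8.20, 7.87 and 8.17 in the KO arrays and 7.59 to 7.90 in WT, a change of 0.29 that did not pass (adjusted p = 0.142).

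The Smads divided between members that shifted little and members with a KO mean of 0.20 or more above WT, and none of the 8 passed. Smad1, which carries BMP signals, was at 7.39, 7.13 and 7.30 in the KO arrays against 6.88 to 7.15 in WT (median 6.98) and 7.12, 7.11 and 7.15 in KI. KO 2 was within the WT range. The change was 0.27 (SE 0.082, limma adjusted p = 0.0711) and passed without KO 2 or WT 6. Smad3, which carries TGF-beta and activin signals, was 0.20 higher (adjusted p = 0.0987), and its 3 KO arrays, 7.66, 7.60 and 7.65, lay above the WT range of 7.31 to 7.56. Smad2, its partner in the same branch, differed by -0.02 (95% interval -0.15 to 0.12), Smad5 by -0.07 (-0.24 to 0.10) and Smad9 by -0.01.

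Smad4, the partner of all receptor-regulated Smads, was at 10.16, 10.04 and 10.17 in the KO arrays, 10.12, 10.11 and 10.12 in the KI arrays and 9.93 to 10.09 in WT (median 10.05). The KI arrays lay just above all WT arrays and KO 2 did not. Neither the KO change of 0.09 (SE 0.06, adjusted p = 0.401) nor the KI change of 0.08 (adjusted p = 0.986) passed. The inhibitory Smad7, which is itself induced by the pathway, was at 7.49, 7.27 and 7.76 in the KO arrays against 6.83 to 7.33 in WT (median 7.18) and 7.44, 7.20 and 7.17 in KI. KO 2 again overlapped WT. The change was 0.40 (SE 0.136, adjusted p = 0.1), and 0.52 without KO 2 (adjusted p = 0.0471). Smad6, the inhibitory Smad of the BMP branch, changed by 0.30 (adjusted p = 0.163).

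**Figure D2:**
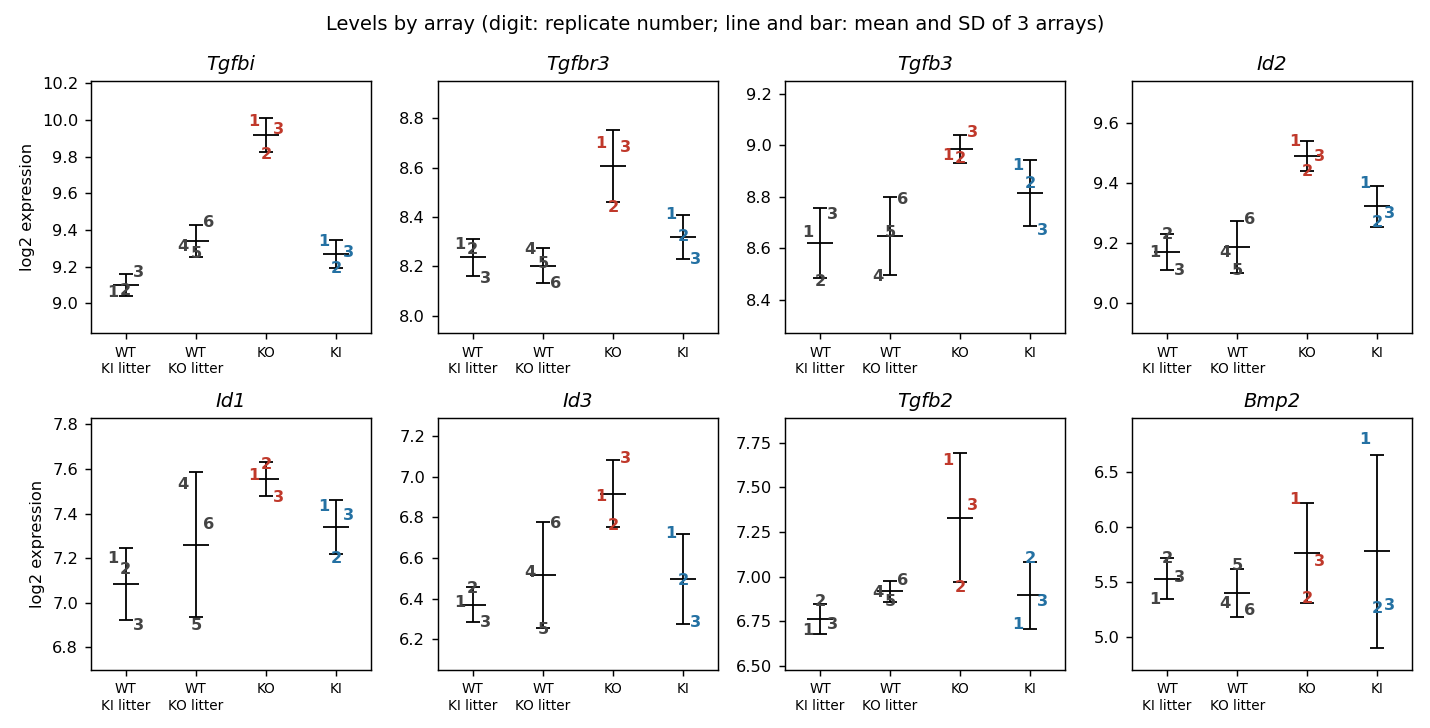
Log2 expression by array in 8 genes, each digit being the replicate number of 1 array and each line and bar the mean and SD of 3 arrays. In Tgfbi, Tgfbr3, Tgfb3 and Id2 all 3 KO arrays sit above all 6 WT arrays; in Tgfb2 KO 2 sits among the WT arrays, and in Bmp2 the array KI 1 stands alone at 6.79.

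None of the 5 extracellular inhibitors and latency proteins passed. Fst, which encodes the activin-binding protein follistatin, was at 6.60, 6.60 and 6.63 in the KO arrays against 6.07 to 6.62 in WT (median 6.40) and 6.52, 6.46 and 6.42 in KI. The KO arrays lay close together at the upper end of the WT range. The change was 0.22 (SE 0.097, limma adjusted p = 0.183). Fstl3, a relative of follistatin, was 0.20 higher (adjusted p = 0.313). Its WT mean was 8.93 in the KI litters and 9.22 in the KO litters, a difference that did not pass (limma adjusted p = 0.891). Against the KO litters alone its KO difference was 0.05. Ltbp1, which holds TGF-beta in latent form in the matrix, was 0.13 higher in KO and 0.19 higher in KI testes, and the BMP antagonists Nog (0.05) and Grem1 (0.01) were near or below the background.

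All 4 target genes had higher means in KO testes, and Tgfbi and Id2 passed. Tgfbi, a secreted matrix protein named for its induction by TGF-beta, was at 9.99, 9.81 and 9.95 in KO 1, KO 2 and KO 3, between 9.06 and 9.44 in WT (median 9.22), and at 9.34, 9.19 and 9.28 in KI. All KO arrays were above all WT and all KI arrays. The change was 0.70, or 1.62-fold (SE 0.09, 95% interval 0.50 to 0.89, limma adjusted p = 0.0143). The WT testes of the KO litters, at 9.31, 9.27 and 9.44, were above those of the KI litters, at 9.06, 9.07 and 9.17. Against the KO litters alone the change was 0.58 (adjusted p = 0.0617) and against the KI litters 0.82 (adjusted p = 0.00605).

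The Id genes encode inhibitors of basic helix-loop-helix factors and are induced by BMP signalling. Id2 was at 9.54, 9.44 and 9.49 in the KO arrays, between 9.11 and 9.28 in WT (median 9.17), and at 9.40, 9.27 and 9.30 in KI. The KO arrays lay above all others. The KO change was 0.31 (SE 0.063, 95% interval 0.18 to 0.45, limma adjusted p = 0.0311). Against the KO litters alone the size was the same, 0.31, and the call was lost (adjusted p = 0.155). Id3 was at 6.90, 6.76 and 7.09 in KO and 6.25 to 6.77 in WT, and missed the threshold by little at 0.47 (adjusted p = 0.0513). KO 2 was just under WT 6, the highest WT array, and the change passed without WT 4 (adjusted p = 0.0495), WT 6 (0.0197) or KO 2 (0.0347). Id1 was at 7.57, 7.62 and 7.47 in KO and 6.90 to 7.53 in WT, a change of 0.38 (adjusted p = 0.0973), and passed without WT 4 (0.45, adjusted p = 0.0361).

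**Figure D3:**
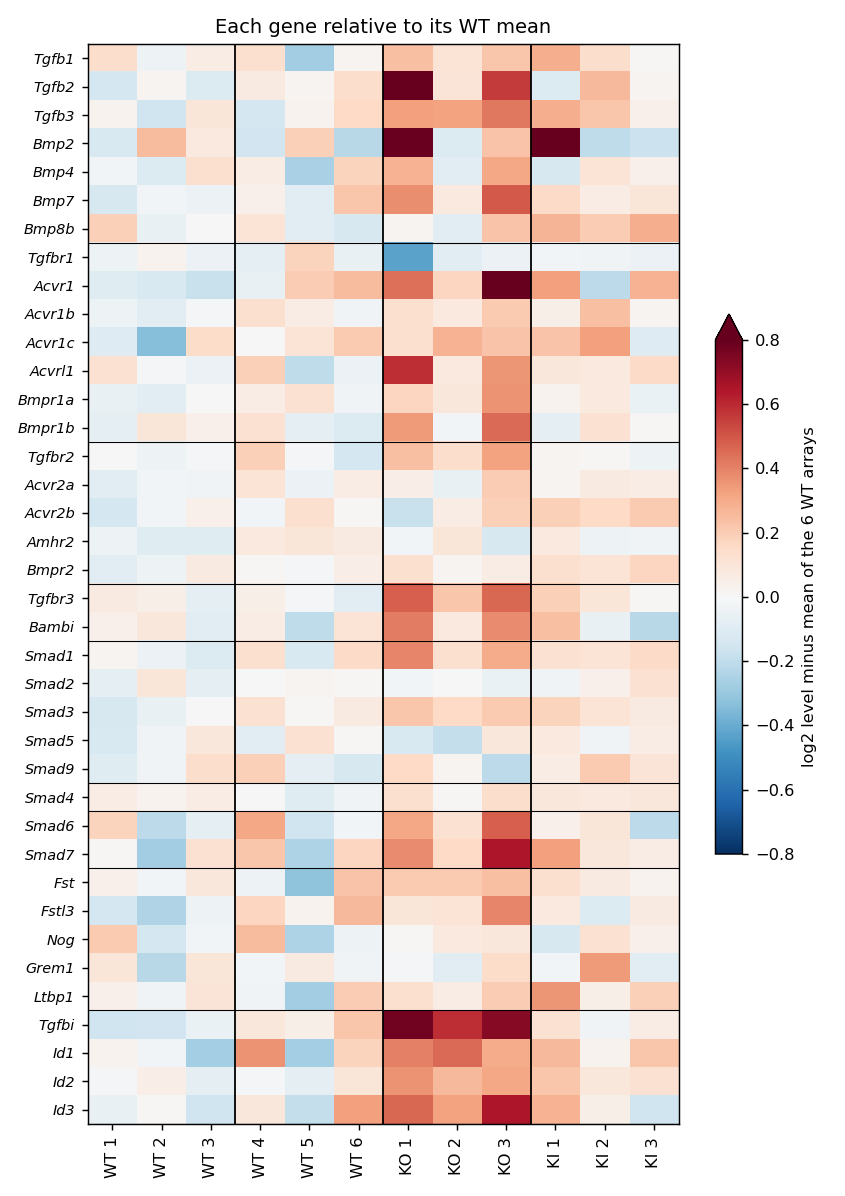
Level of each gene on each array minus its mean over the 6 WT arrays, on the log2 scale, with genes ordered by role and values above 0.8 shown at the end of the scale. KO 1 and KO 3 are red over most rows and KO 2 is paler, while the Tgfbi row is red on all 3 KO arrays.

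How far these 4 calls held depended on the arrays in the fit. Tgfbi was lost without KO 1 (adjusted p = 0.0798) or KO 3 (0.107). Id2 and Tgfbr3 were lost without WT 1, WT 2, WT 3, WT 5, KO 1 or KO 3, with adjusted p between 0.0594 and 0.148. Tgfb3 was lost without the same 6 arrays or without KI 2 or KI 3 (0.0503 to 0.17). The sizes moved less, staying within 0.66 to 0.75 for Tgfbi, 0.34 to 0.47 for Tgfbr3, 0.32 to 0.39 for Tgfb3 and 0.29 to 0.34 for Id2 with any 1 array left out. The count of members called ranged from 0 (without KO 1 or without KO 3) to 12 (without KO 2). Calls over all genes moved too, from 558 higher genes to 1 without KO 1 or without KO 3, and to 1375 without KO 2. Without WT 1, WT 2, WT 3 or WT 5, 1 member was called, beside 21, 19, 8 and 19 genes called higher in all. Without WT 4 there were 7 members, of 805 genes called higher, and without WT 6 there were 8, of 848. Against the WT testes of the KO litters alone no member was called, where 1 gene in all was called higher. An exact permutation test adds nothing to these fits, because groups that do not overlap fix its two-sided p at the least it can give, 0.0238 over 84 splits against all WT testes and 0.1 over 20 splits against the KO litters.

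**Figure D4:**
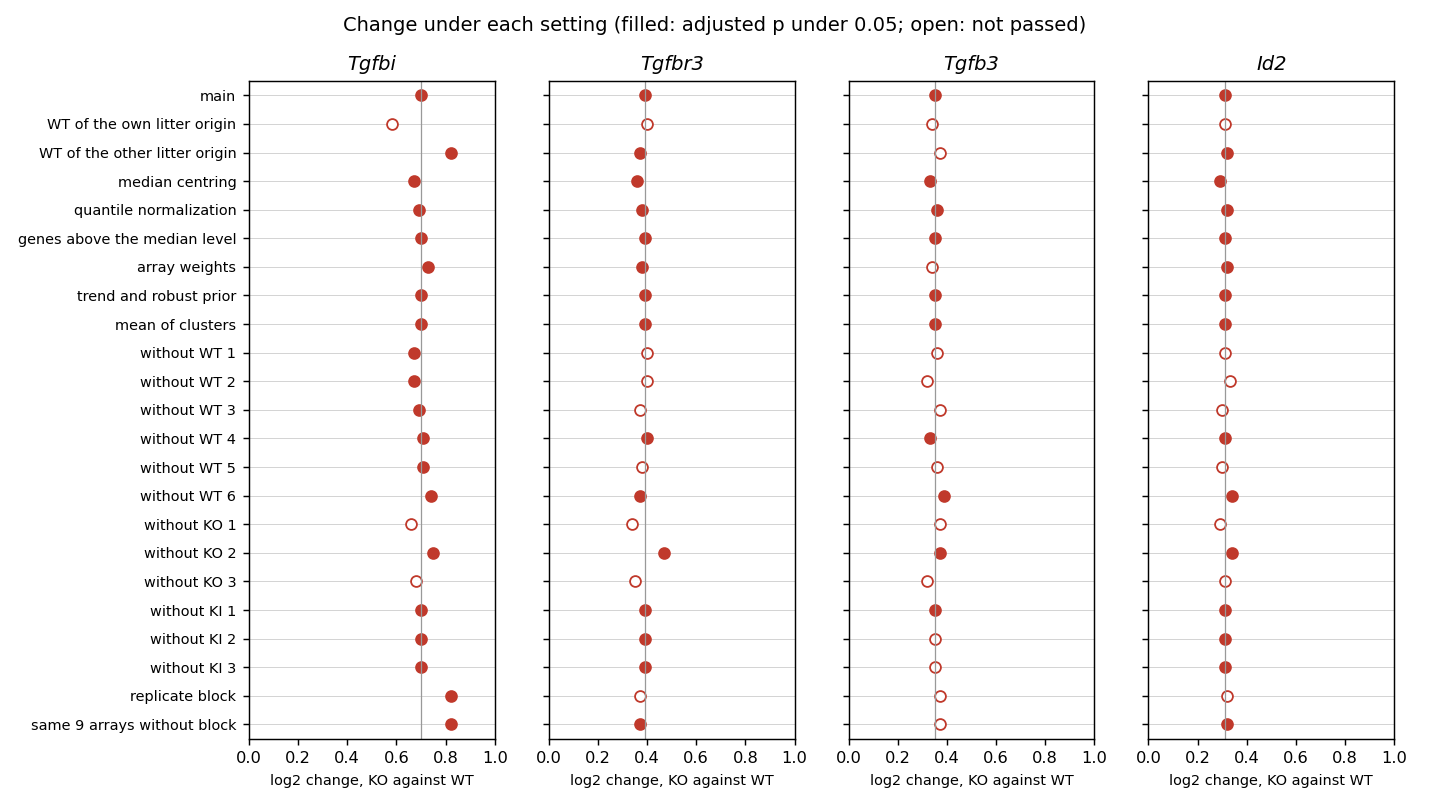
Log2 change in KO against WT of the 4 called genes under each setting, with filled points at an adjusted p under 0.05. The points stay close to the grey line of the reported value, Tgfbi between 0.58 and 0.82, while the filling changes between settings.

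KI testes showed smaller shifts. No member passed against WT, and 4 had an unadjusted p under 0.05 in the limma fit, all higher: Bmp8b (0.25), Id2 (0.15), Bmpr2 (0.14) and Acvr2b (0.18), with adjusted p from 0.945 to 0.949. That is 10.5% of the members, while at that level 2.33% of all genes were higher and 2.91% lower. All 3 KI arrays lay above the WT range in Acvr2b, Bmp8b, Bmpr2 and Smad4, as in 1.79% of all genes, and below it in no member (1.31% of all genes). In KO testes all 3 arrays lay above the WT range in 5 members, the 4 called genes and Smad3, as in 6.87% of all genes, and below it in none (4.59%).

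The differences in KI testes were small and mostly upwards. The KI mean was above the WT mean in 34 of 38 members, against 49.6% of all genes, with a median change of 0.091 against -0.001. The count was 34 also with the WT testes of the KI litters as controls and 28 with those of the KO litters, and the KI and KO comparisons share their WT arrays. Among the 4 genes called in KO testes, Tgfbi had a KI mean of 9.27 ± 0.08 (SD, n = 3), a KO mean of 9.92 ± 0.10 (SD, n = 3) and a WT mean of 9.22 ± 0.15 (SD, n = 6). The KI change of Tgfbi was 0.05 (95% interval -0.15 to 0.24). Tgfbr3 changed by 0.10, Tgfb3 by 0.18 and Id2 by 0.15 in KI testes.

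Set directly against each other, KI and KO testes gave no called member, and no called gene at all (0.0%). Tgfbi was lower in KI than in KO by 0.65 on the log2 scale (95% interval -0.87 to -0.43, limma adjusted p = 0.133). It was called without KO 2, together with Tgfb2 and Tgfbr3, in a fit that called 342 genes higher and 379 lower in all. At an unadjusted p under 0.05, 9 members were lower in KI than in KO and none was higher, against 10.8% and 7.16% of all genes. The KI arrays lay wholly below the KO arrays in 11 members, among them all 3 Id genes, Tgfbi, Tgfbr2 and Tgfbr3, as in 12.6% of all genes, and wholly above them in 1, Tgfbr1, as in 9.56%.

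Whether the mutant effects differed was also tested with each mutant set against its own WT littermates. No member passed (0.0% of all genes were called), and the smallest p was that of Tgfbi, whose KI effect was lower than its KO effect by 0.41 on the log2 scale (unadjusted p = 0.00421, limma adjusted p = 0.847). Tgfbr3 was the other member with an unadjusted p under 0.05, also lower (-0.32). Of all genes 3.59% were lower and 2.24% higher at that level. Between WT testes of the KI and KO litters no member passed either (0.0% of all genes). At an unadjusted p under 0.05 Tgfbi (-0.24) and Fstl3 (-0.29) were lower in the KI litters, against 3.35% of all genes, and no member was higher (1.94%).

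Beyond the 38 members, 82 other genes of the pathway were measured. In KO testes 7 of them rose and 75 did not pass, none being called lower, and their median change was 0.086. Over all genes 2.52% were called higher and 2.34% lower, with a median of 0.043. Without KO 1, without KO 3 or against the WT testes of the KO litters alone, 1 gene in all was called higher. At most 1 of these 7 calls can therefore hold in each of those fits. The activin subunit genes Inhba and Inhbb rose, Inhba by 0.57, from 5.73 ± 0.20 (SD, n = 6) to 6.30 ± 0.19 (SD, n = 3), with a limma adjusted p of 0.0318, and Inhbb by 0.38 (adjusted p = 0.0358). The other 22 measured ligands did not pass, among them Amh, the hormone of immature Sertoli cells, at 0.75 (adjusted p = 0.0701).

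Of 26 other extracellular regulators 3 rose and 23 did not pass. Bmp1, a protease that processes matrix proteins and BMP antagonists, rose by 0.49 (adjusted p = 0.031). Itgb8, an integrin subunit that releases TGF-beta from its latent form, rose by 0.53 (adjusted p = 0.0395). Ltbp3, a latent TGF-beta binding protein like Ltbp1, rose by 0.62 (SE 0.156, adjusted p = 0.0429).

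Inside the cell 1 of 19 regulators rose, the ubiquitin ligase gene Nedd4l (0.31, adjusted p = 0.0326), which marks Smads and receptors for degradation. Of 9 other target genes Atoh8, a helix-loop-helix factor induced by BMPs, rose from 7.02 ± 0.11 (SD, n = 6) to 7.53 ± 0.07 (SD, n = 3), by 0.51 (adjusted p = 0.0295). None of the 4 other co-receptors passed, and the smallest p was that of Rgmb, a BMP co-receptor, at 0.19 (adjusted p = 0.23). In KI testes none of the 82 passed.

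Markers of other cell types moved in the same testes. In KO testes, where 2.34% of all genes were called lower, 10 of 15 spermatocyte markers fell and 5 did not pass. Against the WT testes of the KO litters alone 1 gene in all was called lower. Without KO 1 there were 2, and without KO 3 there was 1. Most of these 10 calls are therefore lost in each of those fits. The median change of these markers was -1.103. Their mean level was 7.44, 8.29 and 7.55 in KO 1, KO 2 and KO 3, between 8.32 and 9.21 in WT and between 8.43 and 8.86 in KI. KO 1 and KO 3, the arrays with the lowest spermatocyte signal, were those with the highest mean over the 38 pathway genes, 7.65 and 7.69, against 7.51 in KO 2. WT lay between 7.35 and 7.47 and KI between 7.45 and 7.55. Within WT, WT 4 and WT 6 had both the lowest spermatocyte means (8.43 and 8.32) and the highest pathway means (7.47 and 7.46). In KI testes the spermatocyte and pathway means were 8.43 and 7.55 in KI 1, 8.86 and 7.48 in KI 2, and 8.72 and 7.45 in KI 3. KI 2 lay above KI 3, WT 4 and WT 6 in the spermatocyte mean. In the pathway mean it was barely above them, at 7.48 against 7.45, 7.47 and 7.46. All arrays have nearly the same distribution of values, so values are relative within an array, and in whole testes fewer cells of a type and less RNA per cell cannot be told apart.

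Somatic markers were higher in part. In KO testes 1 of 6 Leydig markers rose (list means 8.50 to 8.68 against 7.61 to 8.35 in WT), 1 of 12 Sertoli markers (9.90 to 10.09 against 9.71 to 9.91) and 2 of 7 interstitial stroma markers (9.35 to 9.81 against 8.98 to 9.41). None of the 8 peritubular (8.74 to 8.87 against 8.52 to 8.71), 8 endothelial (6.60 to 7.0 against 6.57 to 6.84) or 8 macrophage markers (7.12 to 7.34 against 7.11 to 7.33) passed. Of 10 spermatogonial markers 3 rose (8.24 to 8.32 against 7.96 to 8.21). Of all genes 2.52% were called higher in KO testes, and 1 gene in all without KO 1 or without KO 3. In KI testes none of the markers passed. Among the 6 epididymis markers 5 lay below the background on all arrays, as did 4 of 7 spermatid markers, the spermatocyte marker Pgk2 and the Leydig marker Hsd11b1. The part of these shifts in the pathway changes was not tested.

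**Figure D5:**
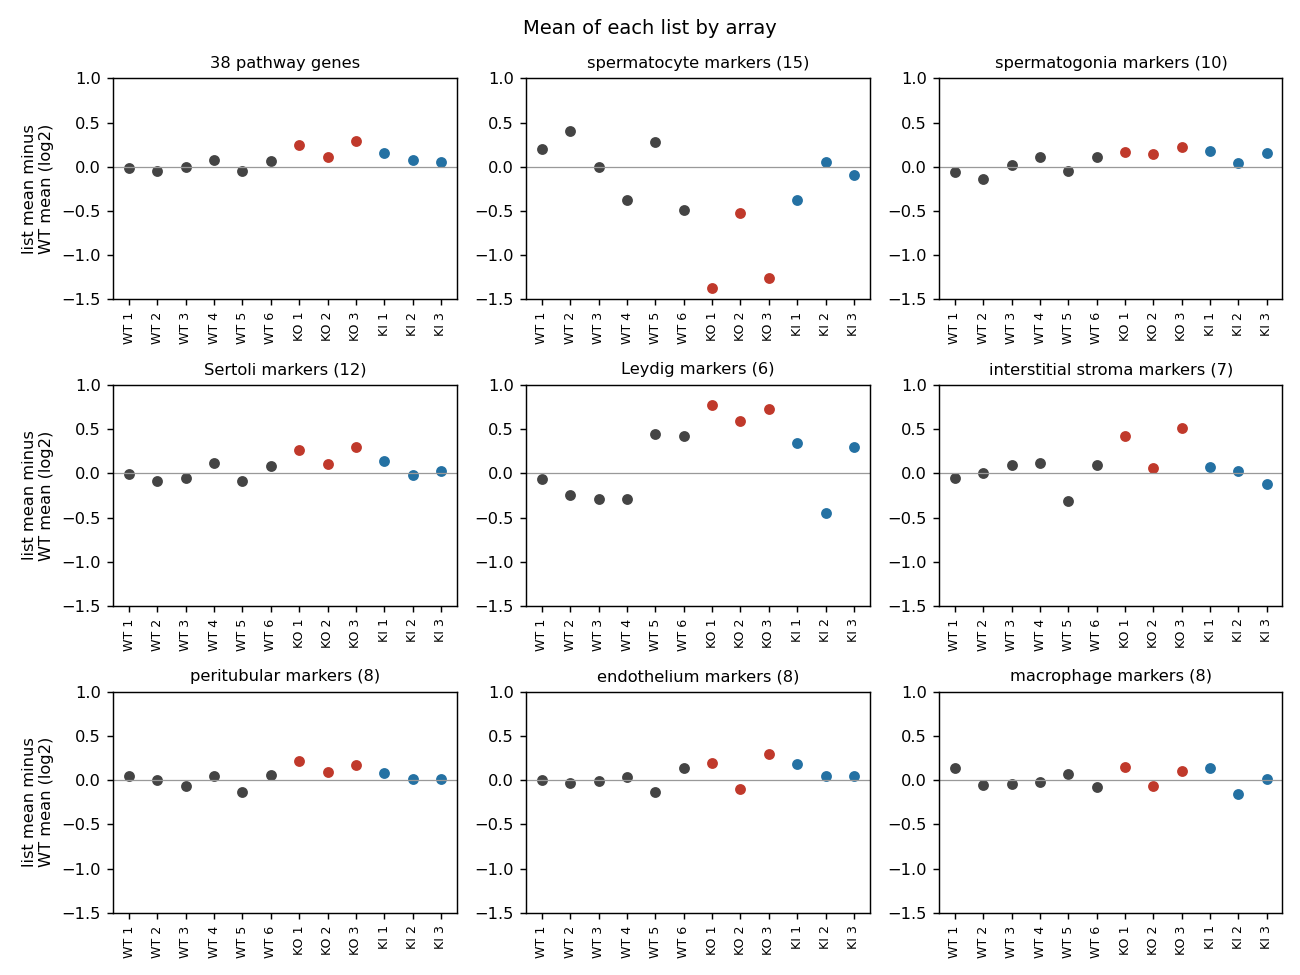
Mean of the 38 pathway genes and of 8 lists of cell type markers on each array, minus the mean of the 6 WT arrays, on 1 common log2 axis (WT grey, KO red, KI blue). KO 1 and KO 3 have the lowest spermatocyte and the highest pathway means, and WT 4 and WT 6 lie on the same side among the WT arrays.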

How the data were processed

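RNA of 12 whole testes was measured on Affymetrix whole-transcript arrays. The deposited values are log2 expression per transcript cluster (0.91 to 13.93, 41345 clusters). Per the submitters' processing notes the tools were Partek 6.6, RMA and Affymetrix Expression Console, whose roles are not given. The platform annotation gave 1 symbol for 23521 clusters, several for 1814 and none for 16010. Each of the 22180 genes was represented by its single-symbol cluster of highest mean, and 21994 genes were matched by Entrez number to the RefSeq gene table.

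limma 3.58.1 in R 4.3.3 (lmFit, eBayes, two-sided) was fitted to all genes and all 12 arrays with 3 genotype groups, or 4 label groups for the WT litters and the difference of effects. p-values were adjusted by Benjamini-Hochberg over 22180 genes, with no filter on dim genes, and the fit was tested on simulated data. An exact permutation test (scipy 1.17.1) was run on the called members. Replicates are biological per the labels, and the mutant testes independent per the series design. The members and lists were chosen with earlier results of these data known. The rule for named genes gave array values for the called members and, in a role without one, for the member of smallest p in KO, and named the called other pathway genes (up to 4 per list). Array values of other members were chosen after they were seen. Alternatives were other normalizations, a level filter, array weights, another variance prior, the mean over clusters, other controls, a replicate block and leaving out each array. Promoter windows came from RefSeq (GRCm38.p6), and probe positions were not used here.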

Additional observations from a re-analysis of the deposited data

How the results depend on the processing

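In KO testes the number of members called higher was 4. It was 0 with the WT of the KO litters as controls, where 0.00451% of all genes were called higher. Among genes above the median level it was 15 of 30, beside 12.2% of all genes. With a trended, robust variance prior it was 7, beside 5.2% of all genes. It ranged from 0 to 12 with 1 array left out, beside 0.00451% to 6.2% of all genes. The level filter changes both the number of genes adjusted over and the fit itself. The cause of these shifts was not tested. With the WT of the KI litters, median centring, a new quantile normalization or the mean over clusters the count of members was also 4. Another member stood in place of Tgfb3 for the KI litters. With array weights the count was 3. Of all genes, 3.05% were called higher with the WT of the KI litters, 2.03% with median centring and 2.46% with quantile normalization. The share was 2.37% with the mean over clusters and 1.72% with array weights. No member was called lower in KO testes under any setting run, and no member in KI testes against WT. In KI against KO testes 1 member, Tgfbi, was called lower among genes above the median level, with the trended prior and with the replicate block, and 0 to 3 with 1 array left out. All genes called there, higher and lower, were 30 and 27 of 11090 above the median level, 2 and 3 with the trended prior, 202 and 45 with the block, and 342 and 379 without KO 2, against none otherwise but for 1 higher without KI 1. Of the changes called in KO testes none turned sign. Calls over all genes in KO testes (558 higher, 520 lower) were 1354 and 1105 above the median level, 1154 and 894 with the trended prior, and 1 and 1 against the KO litters.

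The replicate number as a block over KO, KI and WT 1 to WT 3 gave 3 called members in KO testes (Tgfbi, Acvr1 and Id1, with 573 genes higher and 895 lower in all), against 5 on the same 9 arrays without the block (689 and 889), a comparison chosen after seeing the data. Under the block Tgfbr3 (adjusted p = 0.0617), Tgfb3 (0.0794) and Id2 (0.0573) were not called. Same-numbered arrays correlated between -0.035 and 0.159 in their deviations from group means, so the numbers were not taken to pair the testes. Genes below the background, which are Bmpr1b, Acvr1c, Smad9 and Grem1, limit what a missing call shows.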

Other observations

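Id4, a member of the Id family known from spermatogonial stem cells, did not share the higher KO means of Id1, Id2 and Id3. KO testes had it at 6.89 ± 0.20 (SD, n = 3), KI testes at 7.20 ± 0.14 (SD, n = 3) and WT testes at 7.24 ± 0.42 (SD, n = 6), and the KO difference of -0.36 did not pass (95% interval -0.81 to 0.10, limma adjusted p = 0.325). Foxh1, a partner of activin-type Smads, and Usp15, a protease that removes ubiquitin from the pathway's receptors and Smads, had lower KO means, by -0.33 and -0.29, and did not pass (adjusted p = 0.0716 and 0.0722). These 3 genes were singled out after their values were seen.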
